A study of Mus musculus with 68 samples.

Results

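PA2 was compared with PA1 in wildtype mouse embryos at stage E10.0, across all genes measured by RNA sequencing. Pharyngeal arches bulge from each side of the embryo's throat. PA1 builds the jaws, and PA2, the next arch toward the tail, builds the stapes, the styloid process and part of the hyoid. The libraries were taken by their labels: 5 of PA2 and 5 of PA1, 10 of the 68 libraries in the study. An equal number in the labels marks an embryo, because the series text states that both arches came from a single embryo, so the 5 pairs are 5 embryos.

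The whole study covers both arches at 4 stages from E9.0 to E10.5, in embryos labelled wildtype or Hoxa2-/-. All embryos were of the cross CBA/Ca/J x C57BL/10, arches were dissected by hand, and polyadenylated RNA was amplified as cDNA by SMART-seq v4, made for small inputs, before Nextera XT library construction. The groups used here are wildtype PA1 and PA2 at E10.0, with 5 libraries each, and, for comparison, wildtype E9.5 (4 embryos with both arches), wildtype E10.5 (3 embryos) and E10.0 with the label Hoxa2-/- (5 embryos). No group carries a transgene or a treatment in the labels, and the age of an embryo is known only as its stage. A hand-dissected arch holds neural crest mesenchyme, a mesodermal core, surface ectoderm, pouch endoderm, vessels, blood and ingrowing nerves, so each value is an average over these cells.

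Most of the skeleton of both arches comes from neural crest cells, which migrate from the hindbrain and midbrain into the arches. Crest cells of PA1 carry no Hox transcripts, and those of PA2 express Hoxa2, a homeobox gene without which PA2 forms a mirror copy of PA1 skeletal parts. Within each arch, FGF, BMP, endothelin, Hedgehog, Wnt, retinoic acid and Notch signals from ectoderm and endoderm set up the homeobox, T-box and forkhead gene domains from which the skeletal parts arise.

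Libraries held from 8912251 to 16972442 recovered reads, so that 3 reads corresponded to 0.18 to 0.328 CPM (the scaled level of a gene, its reads set against the reads of the library). Libraries of the same embryo deviated together from their group means, with correlations across genes of 0.25 to 0.56, against -0.40 to 0.15 in 20 pairs of different embryos. On a principal component analysis of the 10 libraries, component 1 (34.6% of the variance) parted the arches and component 2 (21.5%) set embryo 3 apart, at 23.5 for PA1 and 34.0 for PA2. The PA2 library of embryo 3 held 147 CPM of summed yolk sac endoderm markers against 2.78 to 4.69 in the other PA2 libraries, and that of embryo 2 held 78.4 CPM of summed cranial ganglion neuron markers against 18.1 to 23.3. Where leaving out these embryos ended a call, the loss is given beside the result, in some cases within a count of alternatives. The libraries of wildtype E9.5 and E10.5 stood apart from those of E10.0: Ski, chosen after values were seen, was at 26.3 to 108 CPM in those 15 libraries, 9.52 to 15.5 CPM in the 10 wildtype E10.0 libraries and 9.82 to 16.3 CPM in the 10 labelled Hoxa2-/- at E10.0. Arch differences were taken within embryos and so within one side of that division.

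The labels of the arches were read first from the genes that mark them. Hoxa2 (ENSMUSG00000014704, chr6:52162417-52164831 in GRCm38/mm10, minus strand) stood at 0, 0.157, 0.32, 0.0911 and 0.24 CPM in PA1 of embryos 1 to 5 and at 45, 53.7, 42.7, 50.4 and 45.5 CPM in PA2. Every PA2 library exceeded every PA1 library, and the log2 difference was 5.38 (SE 0.12, adjusted p 1.95e-11). Pitx1 (chr13:55825051-55836192, minus strand), a homeobox gene of the mandibular arch, stood at 52.6, 28.3, 39.9, 38.6 and 44.9 CPM in PA1 and at 0.507, 0.218, 0.983, 0.208 and 1.41 CPM in PA2. It was lower in all 5 PA2 libraries, with a log2 difference of -4.68 (SE 0.14, adjusted p 3.99e-10). Lhx8 (chr3:154306294-154330659, minus strand), a LIM homeobox gene of the oral side of PA1, stood at 84.5, 54.6, 58.2, 50.2 and 72.6 CPM in PA1 and at 5.51, 12.2, 7.43, 5.48 and 2.11 CPM in PA2. Its groups did not overlap either, with a log2 difference of -3.23 (SE 0.25, adjusted p 2.05e-06). The arch labels thus went with the 3 markers in each of the 10 libraries. Differences are PA2 minus PA1 of log2(CPM + 1), so the added 1 makes those of low genes too small, and errors, tests and adjusted p-values are from limma with the embryo as a block unless another test is named.

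**Figure D1:**
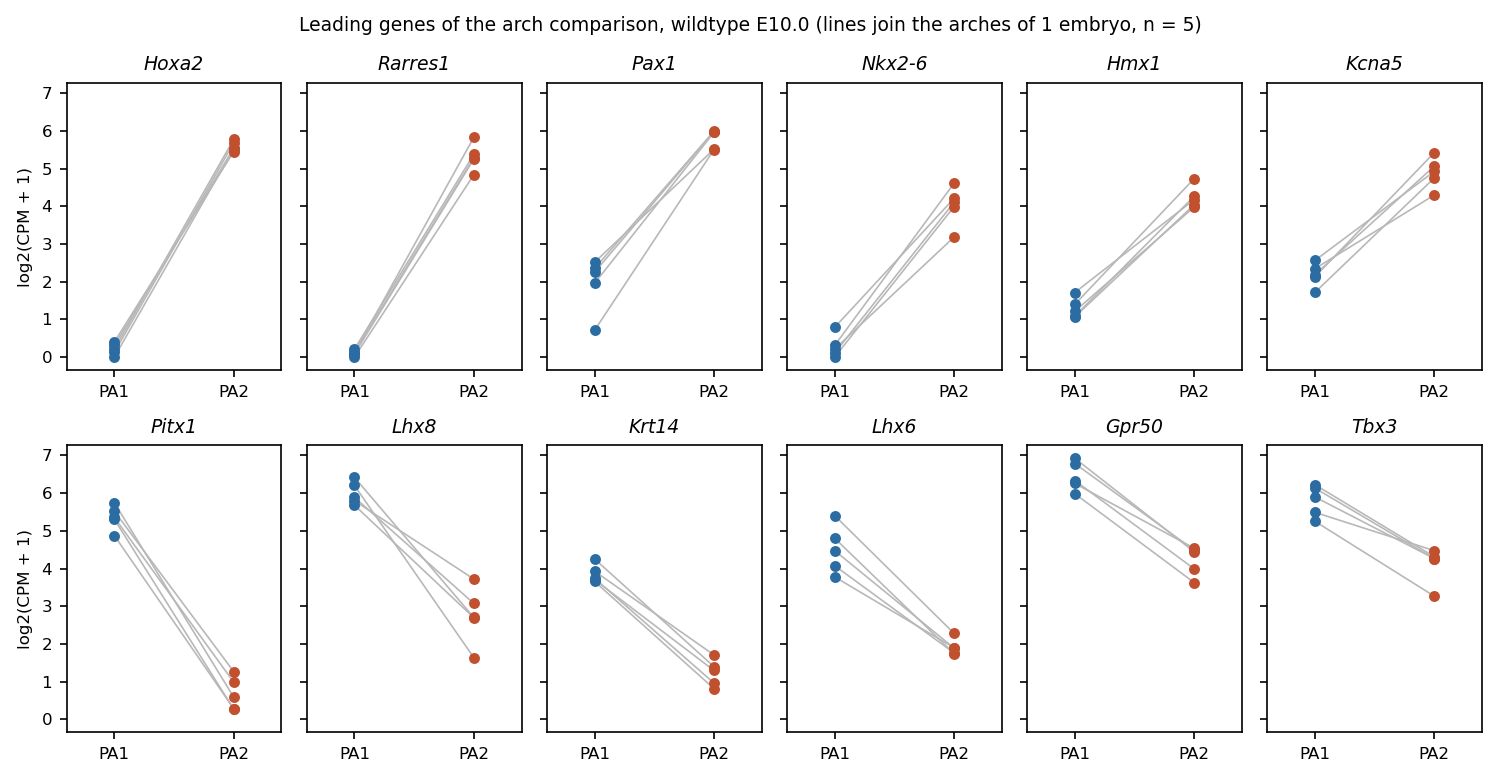
Level on the log2(CPM + 1) scale of 12 leading genes in each of the 10 wildtype E10.0 libraries, with PA1 and PA2 of an embryo joined by a line. Hoxa2 lay between 42.7 and 53.7 CPM in PA2 and at or under 0.32 CPM in PA1, and Pitx1 between 28.3 and 52.6 CPM in PA1 and at or under 1.41 CPM in PA2.

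The promoters of genes that differed most are shown because they carry or lack the short motifs by which Hox proteins and their partners bind DNA. Sequences are from RefSeq on GRCm38.p6, in windows of 300 bases that span the annotated start, written 5′ to 3′ on the gene's strand; capitals mark TGATNNAT, a motif of Hox and Pbx pairs, and TGACAG, a motif of Meis and Prep proteins, on either strand. Hoxa2 lies at chr6:52164782-52165081 (minus strand), Plet1 at chr9:50494275-50494574 (plus strand) and Fgf4 at chr7:144861136-144861435 (plus strand, inside the longer gene model of GENCODE).

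Hoxa2: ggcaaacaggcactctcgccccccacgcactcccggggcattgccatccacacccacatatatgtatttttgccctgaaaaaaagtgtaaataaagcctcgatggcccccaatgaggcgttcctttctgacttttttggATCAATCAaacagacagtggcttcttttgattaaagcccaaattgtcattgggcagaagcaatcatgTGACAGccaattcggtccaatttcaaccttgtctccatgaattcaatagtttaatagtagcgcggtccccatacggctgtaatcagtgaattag

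Plet1: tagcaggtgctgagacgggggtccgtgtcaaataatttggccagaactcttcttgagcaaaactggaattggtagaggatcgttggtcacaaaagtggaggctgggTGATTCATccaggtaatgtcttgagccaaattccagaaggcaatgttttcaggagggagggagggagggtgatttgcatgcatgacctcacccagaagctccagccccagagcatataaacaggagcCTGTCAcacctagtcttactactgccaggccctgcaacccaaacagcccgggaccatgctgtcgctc

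Fgf4: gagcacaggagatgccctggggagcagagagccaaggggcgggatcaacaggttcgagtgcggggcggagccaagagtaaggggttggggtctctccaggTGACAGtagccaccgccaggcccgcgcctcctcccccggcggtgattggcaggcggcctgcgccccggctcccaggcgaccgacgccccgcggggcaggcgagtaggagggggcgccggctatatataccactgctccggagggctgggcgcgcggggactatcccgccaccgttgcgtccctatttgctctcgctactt

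The motif TGATNNAT was in 2 of the 13 promoters listed for the 15 genes with the largest rise in PA2 (those of Hoxa2 and Plet1) and in 0 of the 10 promoters listed for 8 of the 15 with the largest fall. It was in 8.85% of all 32851 promoters of this length and in 4.21% of those of the genes tested. TGACAG was in 3 of the 13 (Hoxa2, Plet1 and Fgf4) and in 5 of the 10 (Foxd1, Gpr50, Krt14, Lhx6 and Tmem59l), against 19.2% of all promoters and 16.3% of those of the genes tested. A match is a description of the letters in this window, and no binding was measured.

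Lhx8 shares its promoter with the non-coding transcript AI606473 (chr3:154330821-154334254, plus strand), which starts 161 bases away in the opposite direction. The Lhx8 window, chr3:154330511-154330810 (minus strand), is shown because both genes were lower in PA2; capitals mark the 240 bases it has in common with the window of AI606473.

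Lhx8: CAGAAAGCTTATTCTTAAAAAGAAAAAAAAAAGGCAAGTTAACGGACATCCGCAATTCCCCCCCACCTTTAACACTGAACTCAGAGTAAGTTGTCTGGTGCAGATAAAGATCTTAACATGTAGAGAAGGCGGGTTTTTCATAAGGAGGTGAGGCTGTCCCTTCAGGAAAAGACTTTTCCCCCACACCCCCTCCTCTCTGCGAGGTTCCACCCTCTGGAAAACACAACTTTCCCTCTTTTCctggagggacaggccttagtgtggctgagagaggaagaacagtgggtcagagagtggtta

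AI606473 stood at 23.1, 6.04, 15.3, 7.38 and 14.5 CPM in PA1 and 0.253, 0.218, 0.764, 0.555 and 0.0783 CPM in PA2, a ratio of 36.8 between the pooled arches. PA1 and PA2 did not overlap, and the log2 difference was -3.26 (SE 0.23, adjusted p 1.10e-06). AI606473 reached 1 CPM in PA1 alone. The level filter of at least 1 CPM in at least 5 of the 10 libraries thus fixed its direction. Reads of these neighbours cannot be told apart where transcripts run past their annotated ends, since the strandedness of the counting is not given in the sources used here.

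Of 16054 genes with at least 1 CPM in at least 5 of the 10 libraries, 2534 (15.8%) passed an adjusted p of 0.05. Of these, 1302 (8.11% of the genes tested) were higher in PA2 and 1232 (7.67%) were lower. The median log2 difference over all genes tested was -0.03 and the median size among the called genes was 0.40, so most called differences were small. Differences over 1 in size were found for 201 genes higher and 48 lower in PA2, and over 2 for 28 and 11. The sign was the same in all 5 embryos for 2286 of the 2534. Groups did not overlap for 1012 genes tested (6.3%), of which 648 (4.04%) were higher and 364 (2.27%) lower in PA2. Without the pairing by embryo, 898 genes passed, 680 higher and 218 lower, and edgeR's quasi-likelihood test on the recovered reads called 2298 genes, 1461 higher and 837 lower. The balance of directions thus moved with the method.

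**Figure D2:**
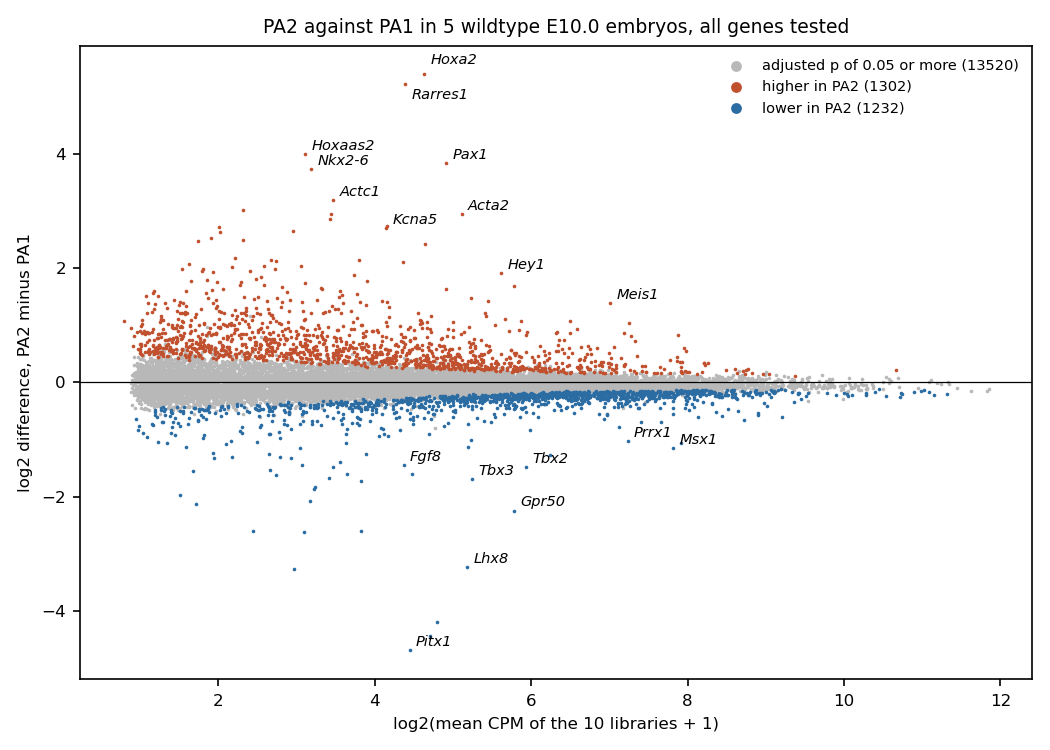
Log2 difference of PA2 minus PA1 for each of the 16054 genes tested, against mean level on the log2(CPM + 1) scale; called genes are coloured by direction and leading genes are named. Hoxa2 at 5.38 and Rarres1 at 5.21 lie at the top, and Pitx1 at -4.68 at the bottom.

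Among the 15 genes most raised in PA2, Rarres1 (chr3:67478972-67515523, minus strand), a membrane protein gene known to respond to retinoids, came next to Hoxa2. It stood at 0, 0.157, 0.080, 0.0911 and 0.0601 CPM in PA1 and 27.5, 40.6, 55.8, 38 and 37.2 CPM in PA2, a ratio of 488 between the pooled arches (log2 difference 5.21, SE 0.13, adjusted p 6.32e-11). The highest PA1 library was thus at 0.157 CPM and the lowest PA2 library at 27.5 CPM. Rarres1 met the level filter through PA2 alone, so the filter fixed its direction. Hmx1, a homeobox gene of the developing external ear and eye, stood at 1.64, 1.1, 1.12, 2.28 and 1.32 CPM in PA1 and 25.6, 15.4, 18.2, 17.1 and 14.8 CPM in PA2 (log2 difference 2.94, SE 0.14, adjusted p 2.22e-08). Kcna5 (chr6:126532551-126535412, minus strand), which encodes a voltage-gated potassium channel of the Kv1 family, stood at 4.91, 3.38, 4.08, 3.55 and 2.28 CPM in PA1 and 29.4, 41.9, 18.7, 32.4 and 25.9 CPM in PA2 (log2 difference 2.70, SE 0.16, adjusted p 2.82e-07). Neither gene's groups overlapped, and the ratios between the pooled arches were 12.9 for Hmx1 and 8.41 for Kcna5. Plet1, an epithelial surface protein gene, differed by 2.64 and Fyb2, an adaptor protein gene, by 2.63. Fyb2 had 7 reads over the PA1 libraries and also met the level filter through PA2 alone. Pdlim3, which encodes an actin-associated LIM protein of muscle, rose from 3.72 ± 1.01 CPM in PA1 to 29.99 ± 4.22 CPM in PA2 (SD, n = 5), with a log2 difference of 2.73 (SE 0.15, adjusted p 1.22e-07).

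Among the genes lower in PA2, Gpr50, a receptor gene related to the melatonin receptors, stood at 120.4, 79.7, 62.3, 109 and 75.4 CPM in PA1 and 20.8, 14.9, 11.4, 21.5 and 22.2 CPM in PA2 (log2 difference -2.24, SE 0.09, adjusted p 1.45e-08). Csn3, the kappa-casein gene, differed by -1.61, Slitrk6, a neuronal transmembrane protein gene, by -1.82, Fam83f by -1.72 and Tmem59l by -1.86. None of these 5 genes had overlapping groups, and all 30 genes of the 2 sets of 15 kept their call and direction under 14 alternative settings wherever they were tested. The alternatives were other pseudocounts, level filters, scalings and tests, no pairing, and embryos left out. The 30 genes were picked for large differences of the same sign in all 5 embryos of these libraries. Their survival was thus favoured by the choice and does not extend to other calls. Of all 173 named called genes, 53 lost their call without the pairing.

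Hox genes, which set identity along the head-to-tail axis, were measured low or not at all in PA1. Of 14 list members in the table, 3 were tested: Hoxa2, its neighbour Hoxaas2 and Hoxb2. These 3 met the level filter through PA2 alone, so the filter fixed their direction; with no filter, 8 of the 14 were higher in PA2 and 0 lower. Hoxaas2, a non-coding transcript on the opposite strand (chr6:52165674-52169564), stood at 0, 0, 0.080, 0 and 0 CPM in PA1 and 19, 13.4, 13.4, 17.9 and 12.8 CPM in PA2. The PA1 libraries together held 1 read, so the log2 difference of 3.99 (SE 0.13, adjusted p 1.20e-09) is not given as a fold. The annotation leaves 842 bases between Hoxa2 and Hoxaas2. Hoxb2 stood at 0.0909, 0.157, 0.48, 0.0911 and 0.12 CPM in PA1 and 4.05, 3.15, 4.8, 3.96 and 3.91 CPM in PA2, with no overlap (log2 difference 2.07, SE 0.13, adjusted p 4.42e-07). Among the 11 genes under the level filter, Hoxa3 averaged 0.0813 CPM in PA1 and 1.22 CPM in PA2, and Hoxb3os 0.0462 and 1.61. Hoxb4, Hoxb5 and Hoxc4, which are expressed further toward the tail, had at most 5 reads over the 5 libraries of either arch.

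TALE homeobox genes, whose proteins bind DNA together with Hox proteins, were all tested. Of the 11, 3, the Meis genes, were higher in PA2 and 1 was lower, against 8.11% and 7.67% of all genes tested. Meis1 stood at 68.5, 69.5, 84.8, 67.3 and 61.4 CPM in PA1 and 205, 198, 195, 163 and 170.0 CPM in PA2. PA2 was the higher arch in all 5 embryos without overlap, and the log2 difference was 1.39 (SE 0.06, adjusted p 1.48e-08). Meis2 rose from 104 ± 5.02 CPM to 160.1 ± 16.4 CPM (log2 difference 0.62, SE 0.06, adjusted p 7.89e-06) and Meis3 from 25.6 ± 2.21 CPM to 39.9 ± 7.41 CPM (log2 difference 0.60, SE 0.08, adjusted p 0.000326). The other 7 members were not called; Pbx3 averaged 81.5 ± 3.7 CPM in PA1 and 85.7 ± 8.01 CPM in PA2, and Pknox2 74.3 ± 15.7 and 70.01 ± 14. The list of 11 had a median of 0.07, near that of all genes.

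Most homeobox genes of the jaw arch were lower in PA2: of 15 tested, 12 were lower in PA2 and 0 higher, with a median of -1.26 against -0.03 for all genes. The share of all tested genes called lower was 7.67%. Lhx6, which acts with Lhx8 in tooth-forming mesenchyme, stood at 41.3, 15.9, 12.7, 21.2 and 26.9 CPM in PA1 and 3.86, 2.39, 2.73, 2.71 and 2.35 CPM in PA2 (log2 difference -2.59, SE 0.16, adjusted p 4.20e-07), with no overlap. Alx4, expressed in frontonasal and distal arch mesenchyme, differed by -1.47 (SE 0.25, adjusted p 0.00136). Msx1, a BMP-responsive homeobox gene of distal mesenchyme, stood at 391, 266, 288, 297 and 302 CPM in PA1 and 161, 101, 129, 168 and 142 CPM in PA2 (log2 difference -1.14, SE 0.07, adjusted p 2.64e-07). Prrx1 and Prrx2, general markers of arch mesenchyme, were lower without overlap, with log2 differences of -1.03 (SE 0.05, adjusted p 6.38e-08) and -0.63 (SE 0.05, adjusted p 2.46e-06). Barx1, a marker of molar and cartilage-forming mesenchyme, was lower, with a log2 difference of -0.69 (SE 0.08, adjusted p 9.00e-05) with overlapping groups, a call lost without the pairing and with all embryos in 1 fit, that is, the E10.0 embryos fitted together with those of the other groups.

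The 3 jaw homeobox genes that did not pass were Gsc, Alx1 and Nkx3-2. Gsc stood at 7.36, 2.35, 5.04, 3.46 and 2.16 CPM in PA1 and 4.75, 1.52, 5.24, 1.6 and 3.13 CPM in PA2, and its values overlapped (SE 0.16, adjusted p 0.314). Nkx3-2, the gene of the jaw joint, averaged 2.17 ± 0.922 CPM in PA1 and 2.56 ± 1.19 CPM in PA2. Of the 11 ectomesenchyme markers, 10 were tested, of which 5 were lower and 0 higher in PA2, against 7.67% and 8.11% of all genes tested. The median was -0.19, and without the pairing 3 were lower. Their summed level was 740 to 945 CPM in PA1 and 566 to 699 CPM in PA2, lower in PA2 in all 5 embryos, and none was at 0. A smaller share of ectomesenchyme cells and less RNA per cell cannot be told apart in such bulk values, and the part of the summed level in the results for jaw genes was not tested. Pdgfra, Pdgfrb and Twist2 did not pass, at 140.4 ± 22.7 CPM in PA1 and 154 ± 23.3 CPM in PA2 for Pdgfra.

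**Figure D3:**
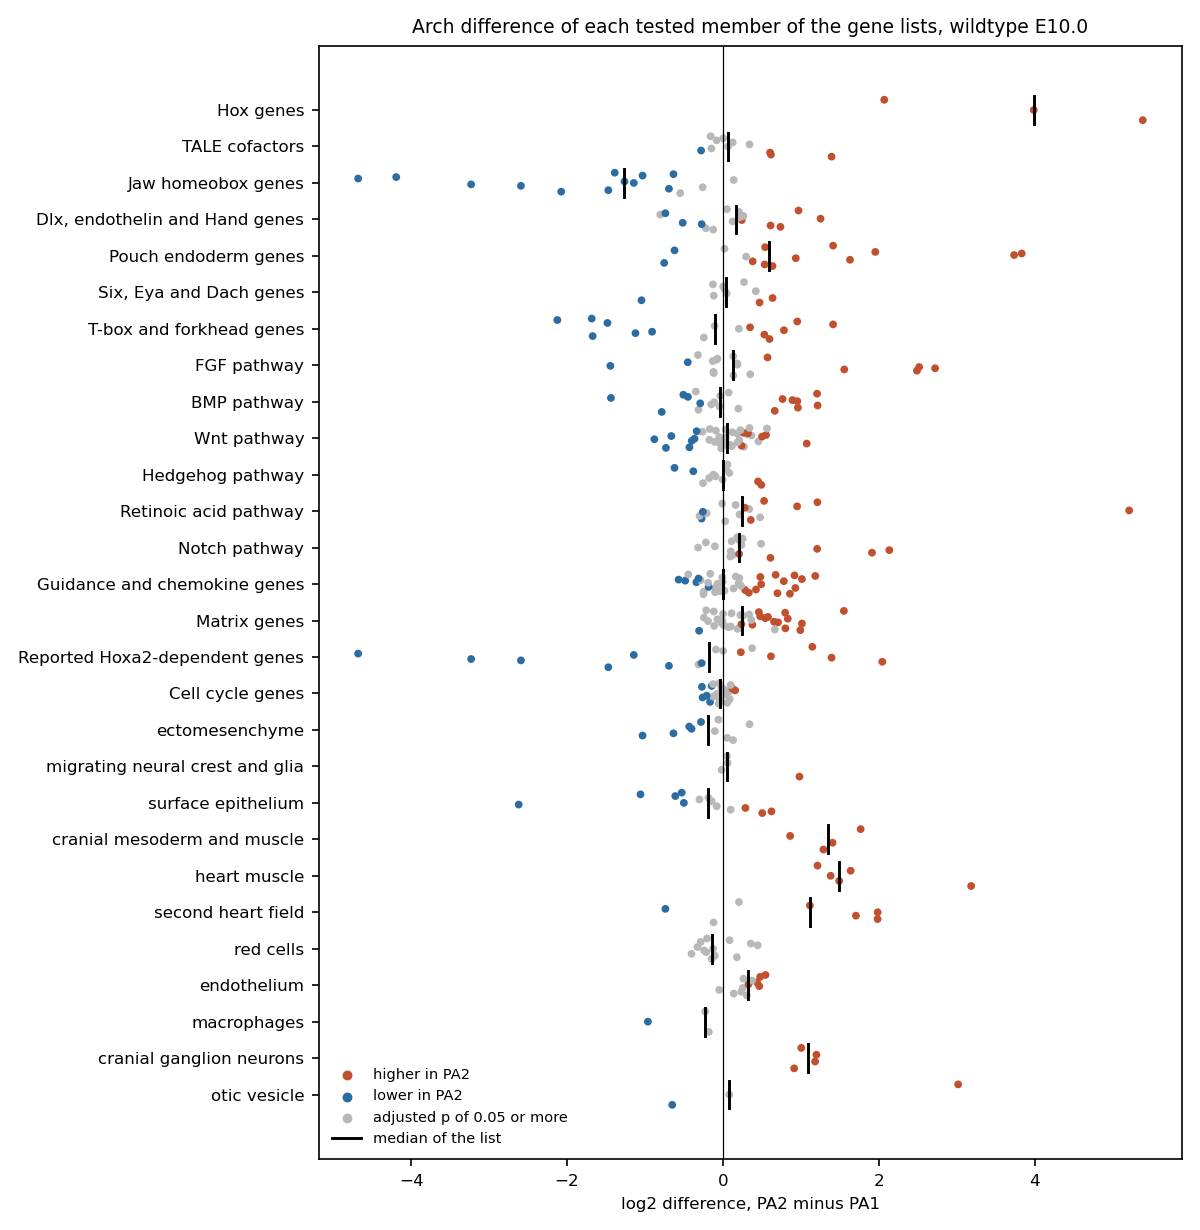
Log2 difference of PA2 minus PA1 for the tested members of each gene list with at least 3 of them; points are genes, coloured where called and grey where not, and the bar is the list's median. The jaw homeobox genes have a median of -1.26 with 12 of 15 called lower, and the pouch endoderm genes a median of 0.59 with 10 of 14 called higher.

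Dorsoventral patterning genes were divided. Of 16 tested genes of the Dlx, endothelin and Hand list, 5 were higher and 3 lower in PA2, with a median of 0.16. The shares over all genes tested were 8.11% and 7.67%. Without the pairing 4 were higher and 2 lower, 6 and 5 were so without embryos 2 and 3 together, 5 and 2 without embryo 1 or 4, and with all embryos in 1 fit 3 and 1. Edn1, the endothelin ligand that sets ventral identity, stood at 5.0, 9.11, 4.96, 7.29 and 6.73 CPM in PA1 and 14.4, 16.6, 10.9, 24.7 and 20.3 CPM in PA2. The PA2 values were all above those of PA1 (log2 difference 1.25, SE 0.12, adjusted p 1.99e-05). Its converting enzyme gene Ece1 was higher by 0.24 (SE 0.05, adjusted p 0.00732), a call lost in 2 alternatives, and the receptor gene Ednra was among the 8 members that did not pass. Dlx3, a ventral Dlx gene, was higher by 0.74 (SE 0.07, adjusted p 1.31e-05), without overlap. Its neighbour Dlx4 was higher by 0.61 (SE 0.13, adjusted p 0.0079), but 1212 bases of Dlx4 and Dlx4os overlap on opposite strands, so reads of the pair cannot be assigned. Dlx5 and Dlx6, the pair needed for lower jaw identity, were lower, with log2 differences of -0.27 (SE 0.07, adjusted p 0.0227) and -0.52 (SE 0.11, adjusted p 0.00805), and the Dlx5 call was lost in 6 alternatives. Dlx6 lies within Dlx6os1 on the opposite strand, so reads of that pair cannot be assigned either, and the calls of Dlx4 and Dlx6 were lost with all embryos in 1 fit. Hand2, the ventral target of endothelin signalling, averaged 16.2 ± 2.58 CPM in PA1 and 9.59 ± 3.3 CPM in PA2 (log2 difference -0.74, SE 0.10, adjusted p 0.000316). Nr2f1, a nuclear receptor gene of dorsal arch mesenchyme, was higher by 0.97 (SE 0.09, adjusted p 1.53e-05), while Nr2f2 did not pass, at 59.4 ± 7.85 and 61.3 ± 5.31 CPM.

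T-box and forkhead genes were split by member: of 15 tested, 6 were higher and 6 lower in PA2. The shares over all genes tested were 8.11% and 7.67%. Tbx3 and Tbx2, repressors of distal mesenchyme, were lower, Tbx3 at 73.7, 44, 37.1, 69.2 and 58.6 CPM in PA1 and 18.9, 21.2, 8.63, 18.2 and 18.2 CPM in PA2 (log2 difference -1.68, SE 0.12, adjusted p 1.02e-06). Tbx2 differed by -1.48 (SE 0.12, adjusted p 3.72e-06), and neither gene's groups overlapped. Tbx22, a palate gene, was lower, with a log2 difference of -2.12 (SE 0.22, adjusted p 2.52e-05). Tbx22 met the level filter through PA1 alone, so the filter fixed its direction. With no filter, 7 of 20 genes of the list were higher and 6 lower. Foxd1, Foxf1 and Foxf2, forkhead genes of maxillary and mandibular mesenchyme that respond to Hedgehog signals, were lower, with log2 differences of -1.67, -1.12 and -0.91, with adjusted p of 1.13e-06, 0.000111 and 0.000971. In the other direction, Tbx1, the T-box gene of pharyngeal endoderm and core mesoderm, stood at 10.2, 6.99, 4.8, 11.8 and 9.79 CPM in PA1 and 23.4, 31.7, 15, 32.7 and 21.2 CPM in PA2 (log2 difference 1.41, SE 0.13, adjusted p 8.56e-06). All its PA2 libraries were above those of PA1. Foxl2, known in the arches from the muscle core and surrounding mesenchyme, was higher by 0.78 (SE 0.12, adjusted p 0.000563) and Foxc1, a gene of mesenchyme and mesoderm, by 0.60 (SE 0.08, adjusted p 0.00019).

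Pouch endoderm genes were mostly higher in PA2: of 14 tested, 10 were higher and 2 lower, with a median of 0.59. The shares over all genes tested were 8.11% and 7.67%. Nkx2-6 and Foxi3 met the level filter through PA2 alone, and with no filter 11 of 17 were higher and 2 lower. Pax1 (chr2:147361925-147393295, plus strand), a paired-box gene of the pouches, stood at 0.636, 4.71, 3.76, 4.1 and 2.88 CPM in PA1 and 44.3, 44.6, 62.1, 62.6 and 61.2 CPM in PA2. The groups were far apart, with a ratio of 16.9 (log2 difference 3.83, SE 0.18, adjusted p 2.90e-08). Nkx2-6 (chr14:69171802-69175518, plus strand), a homeobox gene of caudal pouch endoderm, stood at 0, 0.0785, 0.16, 0.729 and 0.24 CPM in PA1 and 14.9, 16.2, 8.08, 17.5 and 23.4 CPM in PA2, a ratio of 70.0 (log2 difference 3.73, SE 0.18, adjusted p 2.59e-08). Pax9, the relative of Pax1, rose from 1.18 ± 0.44 CPM to 7.42 ± 1.34 CPM (log2 difference 1.95, SE 0.16, adjusted p 3.20e-06). Foxi2 and Foxi3, forkhead genes of pharyngeal ectoderm and endoderm, were higher by 1.63 (SE 0.11, adjusted p 9.54e-07) and 0.93 (SE 0.20, adjusted p 0.00798). Gcm2, the parathyroid gene, was under the level filter, with 0 reads in all PA1 libraries and 0.486 to 0.762 CPM in PA2. Shh, made by foregut endoderm and oral ectoderm, and Foxa2, a gene of foregut endoderm, were the 2 lower members. Shh stood at 2.36, 2.12, 4.24, 2.83 and 2.16 CPM in PA1 and 1.08, 1.2, 1.64, 1.67 and 1.41 CPM in PA2 (log2 difference -0.62, SE 0.13, adjusted p 0.00776), and Foxa2 differed by -0.75 (SE 0.17, adjusted p 0.00881); both calls were lost when embryos 2 and 3 were left out together.

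Of the 4 genes of the thyroid bud, which forms in the pharyngeal floor at the level of PA2, 2 were tested, Hhex and Foxe1, and both were higher. Pax8 stood at 0, 0.0785, 0, 0 and 0 CPM in PA1, where the 5 libraries held 1 read, and at 12.7, 8.05, 2.84, 6.73 and 9.16 CPM in PA2 (log2 difference 3.02, SE 0.21, adjusted p 9.69e-07). Pax8 met the level filter through PA2 alone, so the filter fixed its direction. Hhex stood at 3.45, 2.83, 2.32, 3.92 and 2.28 CPM in PA1 and 11.3, 6.2, 7.75, 7.84 and 11.9 CPM in PA2, with no overlap (log2 difference 1.32, SE 0.16, adjusted p 9.66e-05). Foxe1 was higher by 0.38 (SE 0.11, adjusted p 0.0391), a call lost in 6 alternatives, and Nkx2-1, under the level filter, was at 0 to 0.182 CPM in PA1 and at 4.81, 1.52, 0.764, 2.43 and 4.93 CPM in PA2. Tg, the thyroglobulin gene and the remaining member, was also under the filter and had the other order, with 46 reads in PA1 and 31 in PA2. Pax8, an otic as well as a thyroid gene, is also on the list of otic vesicle markers, of which Gbx2 was lower, with a log2 difference of -0.65 (SE 0.12, adjusted p 0.003), a call lost with all embryos in 1 fit, and Lmx1a did not pass. The summed otic markers were 7.14 to 10.45 CPM in PA1 and 6.33 to 18.6 CPM in PA2, and their part in the Pax8 result was not tested.

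Genes of the Eya and Dach families and their partners act in pouches and placodes. Of 10 tested, Eya1 and Dach1 were higher and Dach2 was lower, against 8.11% and 7.67% of all genes tested. The call of Dach1 was lost in 4 alternatives, among them leaving out embryo 2. Eya1, a coactivator and phosphatase gene, stood at 87.5, 75.1, 78.7, 89.3 and 76.6 CPM in PA1 and 123, 155, 119, 117 and 124 CPM in PA2 (log2 difference 0.64, SE 0.08, adjusted p 0.00011), with all PA2 values above those of PA1. Dach2 differed by -1.05 (SE 0.15, adjusted p 0.000381). Six2 averaged 9.41 ± 1.82 CPM in PA1 and 9.96 ± 4.54 CPM in PA2 and did not pass.

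FGF ligands showed opposite differences, while most of the pathway did not pass. Of 18 genes tested, 5 were higher and 2 lower in PA2, against 8.11% and 7.67% of all genes tested. Without embryo 2 the counts were 4 and 4. Of the 5 higher genes, Fgf3, Fgf4, Fgf15 and Fgf20 met the level filter through PA2 alone; with no filter, 4 of 22 were higher and 2 lower. Fgf3, Fgf4 and Fgf15 are neighbours on chromosome 7, at chr7:144838083-144844436, chr7:144847367-144865243 and chr7:144896531-144900953, all on the plus strand and separated by 2930 and 31287 bases. Fgf3 had 0 reads in all 5 PA1 libraries and stood at 3.93, 10.1, 5.13, 7.5 and 3.36 CPM in PA2. Fgf4 also had 0 reads in PA1 and stood at 2.72, 11.7, 3.93, 6.32 and 2.58 CPM in PA2. With a floor of 3 reads over the PA1 group, Fgf3 was at least 123-fold higher and Fgf4 at least 108-fold higher in PA2 (adjusted p 9.00e-07 and 8.69e-06). Fgf15 stood at 0.273, 0.0785, 0.64, 0.638 and 0.601 CPM in PA1 and 4.18, 11.2, 8.74, 9.37 and 4.15 CPM in PA2 (log2 difference 2.49, SE 0.21, adjusted p 4.54e-06), again without overlap. The flanking genes did not share this size: Ano1 was higher by 0.56 and Ccnd1 differed by -0.05 (adjusted p 0.00504 and 0.788).

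The PA2 library of embryo 2 had the highest level of Fgf3, Fgf4 and Fgf15, and it also had the highest summed neuron markers, 78.4 CPM; the part of these in the FGF results was not tested. Without embryo 2, Fgf3 and Fgf4 still passed, with log2 differences of 2.53 and 2.23 on the log2(CPM + 1) scale. Fgf20, a ligand of sensory and epithelial tissue, stood at 0.182, 0.314, 0.080, 0 and 0.12 CPM in PA1 and 2.47, 2.83, 2.29, 2.57 and 1.64 CPM in PA2 (log2 difference 1.56, SE 0.14, adjusted p 7.64e-06). Fgf8, the ligand of oral ectoderm and arch epithelium, went the other way, with 26.9, 24.3, 32.4, 26.6 and 36.2 CPM in PA1 and 9.94, 8.38, 9.72, 12.7 and 9.78 CPM in PA2. Its groups did not overlap (log2 difference -1.44, SE 0.11, adjusted p 1.65e-06). The receptor gene Fgfr2 was lower, with a log2 difference of -0.45 (SE 0.06, adjusted p 0.000357) and the feedback inhibitor Spry1 was higher by 0.57 (SE 0.17, adjusted p 0.0335), a call lost in 6 alternatives. The response genes Dusp6, Etv5 and Spred1 did not pass: Dusp6 averaged 162 ± 15.5 CPM in PA1 and 181 ± 41.3 CPM in PA2.

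BMP pathway genes differed in both directions: of 20 tested, 7 were higher and 5 lower, against 8.11% and 7.67% of all genes tested. The extracellular BMP modulators Bmper, Chrd, Chrdl1 and Fst were higher in PA2, by 1.21, 0.95, 0.89 and 0.76, with adjusted p of 0.000326, 0.00326, 0.00203 and 0.00626. The call of Fst was lost without embryos 2 and 3 together and with all embryos in 1 fit. Bmper stood at 2.0, 2.67, 2.32, 4.28 and 2.46 CPM in PA1 and 8.04, 8.7, 4.91, 6.59 and 10.4 CPM in PA2, with no overlap. The BMP response genes Id1 and Id3 were lower, with log2 differences of -0.45 (SE 0.05, adjusted p 0.000104) and -0.51 (SE 0.05, adjusted p 3.44e-05), as was the pseudoreceptor Bambi, with -0.79 (SE 0.12, adjusted p 0.000598). Id4 was higher, from 13.2 ± 2.44 CPM to 31.7 ± 4.68 CPM (log2 difference 1.21, SE 0.10, adjusted p 3.91e-06), and Id2 did not pass. Of the ligands, Bmp6 was higher by 0.96 (SE 0.14, adjusted p 0.000538) and Gdf6 lower, with a log2 difference of -1.44 (SE 0.26, adjusted p 0.00248; adjusted p 0.0519 without embryos 2 and 3 together), while Bmp4 and Bmp7 did not pass. Bmp4 stood at 26.8, 22.5, 25, 28.5 and 24.6 CPM in PA1 and 29.1, 16.3, 13.3, 25.9 and 20.6 CPM in PA2, so its groups overlapped.

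Wnt pathway genes differed in both directions as well: of 39 tested, 6 were higher and 7 lower, against 8.11% and 7.67% of all genes tested. Without embryo 1, 5 were higher and 3 lower, without embryo 2, 4 and 5, and without the pairing, 2 and 3. Of 12 named Wnt calls, 4 were kept in all alternatives, those of Fzd4, Dkk1, Sfrp1 and Lgr6. Fzd4, a Wnt and Norrin receptor gene, stood at 39.7, 35.7, 30.7, 43.9 and 33.5 CPM in PA1 and 90.7, 92.6, 71.6, 68.2 and 69.7 CPM in PA2 (log2 difference 1.07, SE 0.09, adjusted p 3.41e-06), with no overlap. The secreted inhibitor Dkk1 was lower, with a log2 difference of -0.73 (SE 0.15, adjusted p 0.00579) and Sfrp1, another secreted inhibitor, was higher by 0.55 (SE 0.09, adjusted p 0.00138). Of 13 Hedgehog pathway genes, Shh and the response gene Ptch1 were lower (-0.38 for Ptch1, adjusted p 0.00722), the coreceptor Boc and the release factor Disp1 were higher, and 9 did not pass, Smo and Gli3 among them. Each of these 4 calls was lost in at least 1 alternative. Of 16 retinoic acid genes, 6 were higher and 2 lower; without the pairing 3 were higher and 0 lower, without embryo 1 the lower count was 1, as it was without embryo 4 or 5, and with all embryos in 1 fit it was 0. The calls of Rdh10, Rxrg and Rarres1 were kept in all alternatives, 3 of the 8. Rarres1 met the level filter through PA2 alone, and with no filter 8 of 20 were higher and 1 lower. Besides Rarres1, the synthesis enzyme gene Rdh10 stood at 14, 16.4, 17.3, 16 and 14.4 CPM in PA1 and 33.1, 32, 34.1, 31.1 and 25.7 CPM in PA2 (log2 difference 0.95, SE 0.08, adjusted p 4.42e-06). Rxrg, a retinoid receptor gene, was higher by 1.21 (SE 0.14, adjusted p 7.21e-05), and both were without overlap.

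Of 17 Notch pathway genes tested, 5 were higher in PA2 and 0 lower, against 8.11% and 7.67% of all genes tested. Their median was 0.20. Without embryo 2 or without the pairing 3 were higher, and without embryo 4, 4 were higher and 1 lower. The target genes Hey1 and Heyl led. Hey1 stood at 19.7, 20.3, 15.8, 21.2 and 20.3 CPM in PA1 and 74.3, 92, 69, 83.4 and 62.9 CPM in PA2 (log2 difference 1.91, SE 0.08, adjusted p 1.32e-08). Heyl stood at 3.18, 3.69, 4.32, 4.38 and 4.32 CPM in PA1 and 17.1, 34.5, 19, 25.4 and 13.3 CPM in PA2 (log2 difference 2.13, SE 0.17, adjusted p 2.31e-06). The ligand gene Jag1 rose from 24.6 ± 3.84 CPM to 58.1 ± 7.7 CPM (log2 difference 1.21, SE 0.07, adjusted p 2.29e-07). Groups did not overlap for these 3 genes, and their calls were kept under all alternatives. Hes1, the receptor gene Notch3 and Rfng did not pass; Hes1 averaged 33.9 ± 2.92 CPM in PA1 and 37 ± 4.0 CPM in PA2. Hey1, Heyl and Jag1 are also expressed in endothelial cells. The summed endothelial markers were 222 to 340 CPM in PA1 and 227 to 436 CPM in PA2, with none at 0. Their sum was higher in PA2 in all 5 embryos. The part of vessels in the results for Hey1, Heyl and Jag1 was not tested.

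Guidance and chemokine genes held 13 higher and 5 lower among 40 tested, against 8.11% and 7.67% of all genes tested. The 5 lower fell to 2 without embryo 1, 3 or 4 and to 3 without embryo 2, and without the pairing 9 were higher and 1 lower. Slit2 and Slit1, secreted repellents for axons and migrating cells, were higher, Slit2 at 24.5, 20.2, 15.3, 21.9 and 21.6 CPM in PA1 and 33.3, 60.7, 27, 38.1 and 46.2 CPM in PA2 (log2 difference 0.92, SE 0.12, adjusted p 0.000244). Slit1 differed by 1.18 (SE 0.15, adjusted p 0.000205), and neither gene's groups overlapped. Cxcl12, a chemokine gene that guides crest cells and vessels, stood at 122, 95.6, 89.8, 120.4 and 88.2 CPM in PA1 and 197, 199, 183, 176 and 176 CPM in PA2 (log2 difference 0.86, SE 0.07, adjusted p 3.99e-06). Epha3, an ephrin receptor gene, was higher by 0.93 (SE 0.06, adjusted p 4.20e-07), with 103 CPM in its lowest PA2 library and 75.8 CPM in its highest PA1 library. Sema3a, a secreted repellent of axons and crest cells, was the leading gene of the lower side, at 141, 139.6, 156, 149.7 and 152 CPM in PA1 and 96.6, 90.6, 92.2, 97.2 and 122 CPM in PA2 (log2 difference -0.57, SE 0.06, adjusted p 3.41e-05). Epha7 and Sema3c were lower, with log2 differences of -0.18 and -0.31, calls lost in 11 and 8 alternatives.

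Matrix genes were higher where they passed, with 1 exception: of 35 tested, 14 were higher and 1, Col11a1, was lower. The shares over all genes tested were 8.11% and 7.67%. Fn1, the fibronectin gene, stood at 206, 145, 133, 183 and 155 CPM in PA1 and 327, 368, 148, 333 and 344 CPM in PA2. Embryo 3 had the smallest PA2 value and overlapped PA1, while the other 4 were above all PA1 libraries (log2 difference 0.83, SE 0.12, adjusted p 0.000502). Col5a1, a fibrillar collagen gene, was higher by 1.01 (SE 0.10, adjusted p 1.26e-05). Tnc, the tenascin gene of developing connective tissue, stood at 6.0, 5.81, 5.44, 4.28 and 2.82 CPM in PA1 and 34.1, 11.1, 3.17, 30.7 and 22.8 CPM in PA2 (log2 difference 1.55, SE 0.37, adjusted p 0.013), with embryo 3 on the PA1 side; the call was lost without embryo 1, 4 or 5 and without the pairing, and that of Col11a1 in 6 alternatives. Without embryo 3, 22 of 36 matrix genes were higher and 0 lower, without embryo 4, 9 of 35 were higher and 0 lower, and without the pairing 5 were higher and 0 lower. The cartilage and mesenchyme collagen genes Col2a1 and Col3a1 did not pass, at 354 ± 77.9 CPM in PA1 and 323 ± 41 CPM in PA2 for Col2a1.

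Of 24 cell cycle genes tested, 7 passed, against 15.8% of all genes tested: 2 were higher and 5 lower, with a median of -0.03, the same as for all genes. The largest of these was Mki67, with a log2 difference of -0.27 (SE 0.07, adjusted p 0.027), and none of the 7 calls was kept in every alternative; without embryo 2 or 5, 0 were higher and 2 lower, without embryo 1 or 4, 1 and 2, without embryo 3, 0 and 5, and without the pairing 0 passed. Among 16 tested genes reported to depend on Hoxa2, 5 were higher and 7 lower, against 8.11% and 7.67% of all genes tested. This list was drawn from studies of the same tissue and so is no independent evidence of direction. Without the pairing, 4 were higher and 5 lower. Besides those already named, Htra3, a secreted protease gene, stood at 2.64, 1.65, 2.56, 2.19 and 1.8 CPM in PA1 and 17.9, 10.2, 7.64, 15.2 and 11.3 CPM in PA2 (log2 difference 2.04, SE 0.15, adjusted p 1.80e-06). Zfp703, a zinc finger repressor gene, was higher by 1.15 (SE 0.08, adjusted p 1.41e-06), without overlap. Six2, Wnt5a and Bmp4 of that list did not pass.

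Markers of other cell types that a dissected arch can hold also differed. Of 6 cranial mesoderm and muscle precursor markers, the 4 tested were higher in PA2, against 8.11% of all genes tested. Tcf21, a transcription factor gene of head muscle precursors, stood at 6.09, 3.77, 4.16, 7.47 and 7.87 CPM in PA1 and 27.2, 15.7, 21.4, 23.5 and 22.1 CPM in PA2 (log2 difference 1.77, SE 0.12, adjusted p 7.05e-07). Msc, another head muscle factor gene, differed by 1.41, Lhx2 by 1.29 and Myf5 by 0.86, with adjusted p of 7.61e-05, 1.86e-05 and 0.00312; the call of Myf5 was lost without embryos 2 and 3 together (adjusted p 0.0645). Myod1 and Myog, genes of later muscle, were under the level filter and had the other order, with 22 and 6 reads in PA1 and 5 and 2 reads in PA2. The summed markers were 11.04 to 23.4 CPM in PA1 and 45.1 to 60.7 CPM in PA2, without overlap. The second heart field is the mesoderm behind the arches that feeds the outflow tract. Its markers were higher for 4 of 7 tested members (Gata4, Gata5, Gata6 and Isl1) and lower for Hand2. Over all genes tested, 8.11% were called higher and 7.67% lower. Of the 7 members, 1 reached 1 CPM in at most 2 libraries of 1 arch, so the filter favoured its direction. Gata6 stood at 1.18, 1.81, 0.96, 2.46 and 0.841 CPM in PA1 and 17.4, 4.46, 3.49, 11 and 12.7 CPM in PA2 (log2 difference 1.98, SE 0.27, adjusted p 0.000248), and Isl1 at 31.3, 32.5, 33.8, 30.4 and 26.5 CPM and 78.7, 63, 53.5, 68.3 and 79.7 CPM (log2 difference 1.12, SE 0.10, adjusted p 1.03e-05).

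Of 13 contractile genes of heart muscle, 5 were tested and were higher in PA2, against 8.11% of all genes tested. Of these 5, 3 reached 1 CPM in at most 2 PA1 libraries, so the filter favoured this direction. With no filter, 7 of the 13 were higher and 0 lower, and with all embryos in 1 fit 2 of 13 were higher; 4 of 5 were higher without the pairing or without embryo 4, and 6 of 6 without embryo 3 or 5. Actc1, the cardiac actin gene, stood at 1.09, 0.471, 1.84, 0.547 and 0.30 CPM in PA1 and 29.8, 18.3, 3.17, 33.5 and 11.7 CPM in PA2 (log2 difference 3.18, SE 0.40, adjusted p 0.000143). Acta2, the smooth muscle actin gene, stood at 3.91, 7.93, 3.28, 8.84 and 2.7 CPM in PA1 and 101, 51.1, 5.35, 95.2 and 56.1 CPM in PA2 (log2 difference 2.95, SE 0.38, adjusted p 0.000195). In both genes embryo 3 had the lowest PA2 value, and for Acta2 it lay among the PA1 values. The summed heart muscle markers were 7.87 to 12.2 CPM in PA1 and 108.5, 52.4, 18.1, 87.7 and 35.7 CPM in PA2 of embryos 1 to 5, so that PA2 libraries differed among themselves by several fold. Myl2 was nearly absent from both arches, with 2 reads in PA1 and 3 in PA2. The part of heart muscle cells in the Acta2 result was not tested. Without embryo 3 the log2 differences were 3.84 for Actc1 and 3.54 for Acta2.

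**Figure D4:**
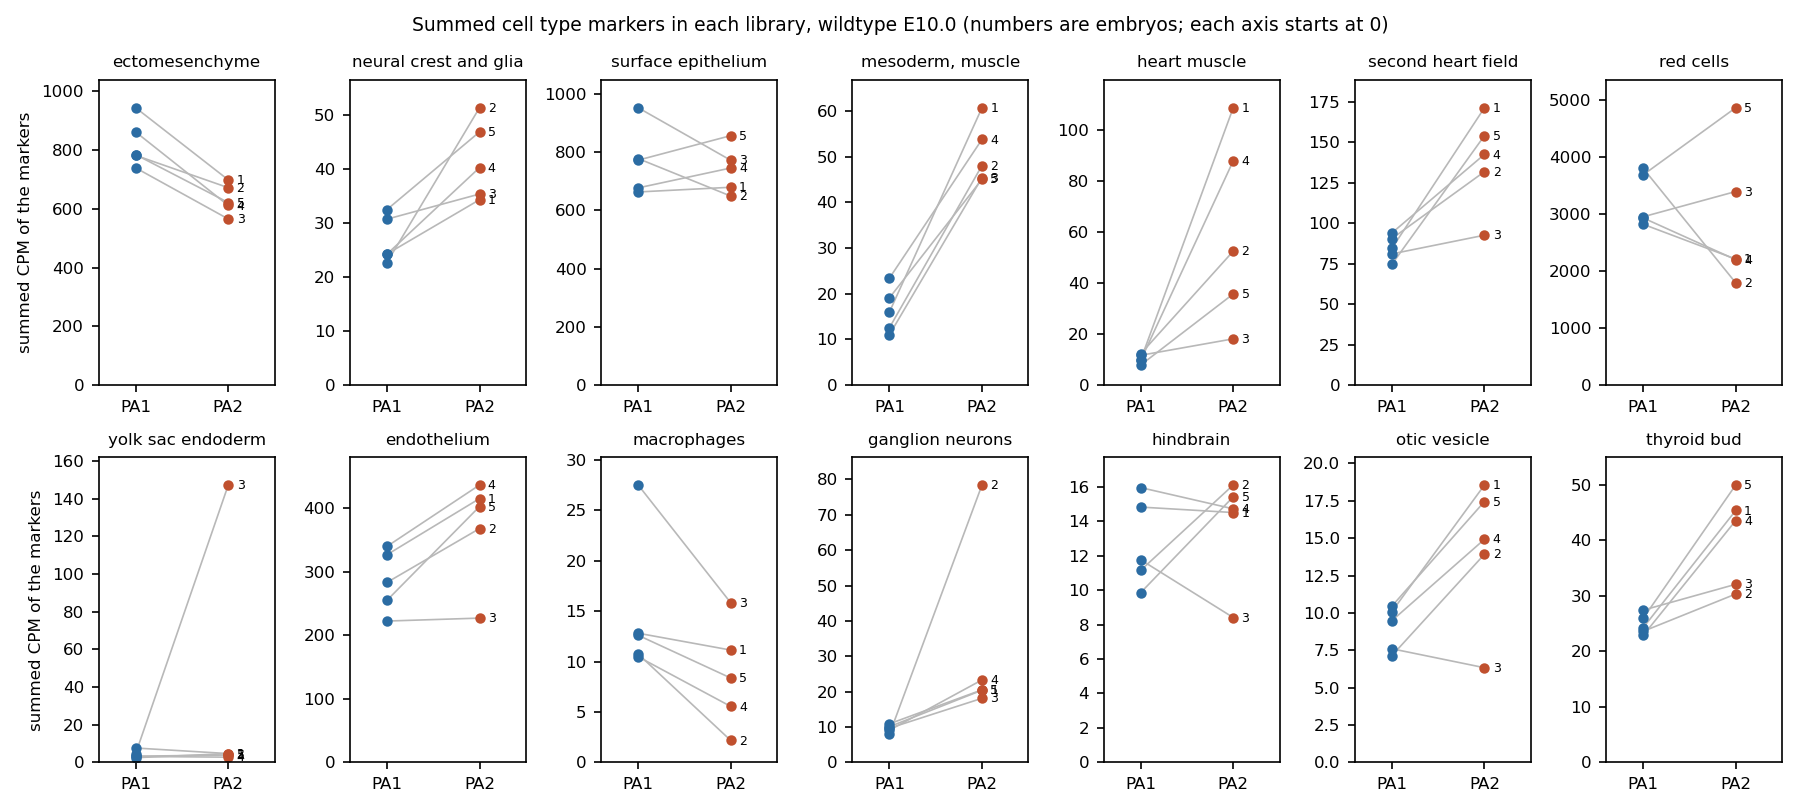
Summed CPM of cell type markers in each wildtype E10.0 library, with PA1 and PA2 of an embryo joined by a line, the embryo's number at its PA2 point and each axis starting at 0. Heart muscle markers reach 108.5 CPM in PA2 of embryo 1, neuron markers 78.4 CPM in PA2 of embryo 2 and yolk sac markers 147 CPM in PA2 of embryo 3.

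Of 15 neuron markers, the 4 tested were higher in PA2, against 8.11% of all genes tested. Of these 4, 1 met the level filter through PA2 alone. With no filter 6 were higher and 0 lower. The markers summed to 7.93 to 10.9 CPM in PA1 and 18.1 to 78.4 CPM in PA2. Elavl4, an RNA-binding protein gene of young neurons, stood at 3.09, 3.06, 2.32, 2.73 and 3.0 CPM in PA1 and 5.19, 10.8, 6.22, 5.35 and 4.85 CPM in PA2 (log2 difference 0.91, SE 0.15, adjusted p 0.00127). Nefl, a neurofilament gene, differed by 1.18 (SE 0.23, adjusted p 0.00354). Both were higher in PA2 without overlap. Neurog2 and Neurod4, proneural genes of the ganglion placodes, were at 7.62 CPM each in PA2 of embryo 2 and at or under 0.833 CPM in the other PA2 libraries, and Neurog2 and Prph were at 0 in all PA1 libraries. Of the crest and glia markers, Erbb3 was higher by 0.98 (SE 0.12, adjusted p 0.00011), and Fabp7 and Tfap2b did not pass.

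Surface epithelium markers went both ways: of 13 tested, 3 were higher and 5 lower in PA2, against 8.11% and 7.67% of all genes tested. Krt14, a keratin gene of basal ectoderm, stood at 12.4, 11.6, 18.1, 12 and 14.2 CPM in PA1 and 0.95, 0.762, 1.64, 1.46 and 2.27 CPM in PA2. PA1 values began at 11.6 CPM and PA2 values ended at 2.27 CPM (log2 difference -2.62, SE 0.13, adjusted p 4.55e-08). Trp63, the master gene of stratified ectoderm, and Tfap2c were lower, with log2 differences of -0.53 (SE 0.07, adjusted p 0.000376) and -1.06 (SE 0.12, adjusted p 4.98e-05). Epcam and Cdh1, which are made by both ectoderm and endoderm, were higher by 0.62 (SE 0.06, adjusted p 8.56e-06) and 0.50 (SE 0.08, adjusted p 0.00129), the latter a call lost with all embryos in 1 fit. The summed markers overlapped, at 663 to 952 CPM in PA1 and 648 to 856 CPM in PA2, and their part in the results for epithelial genes was not tested. Endothelial markers were higher for 5 of 12 tested genes, Tie1, Tek, Kdr, Plvap and Pecam1, by 0.33 to 0.55, against 8.11% of all genes tested. All 5 calls were lost without the pairing and with all embryos in 1 fit, where 0 of 13 passed. The calls of Tie1 and Pecam1 were lost without embryo 2, while 8 genes passed without embryo 3 and 3 without embryo 4. Of 13 red cell genes 0 passed with limma (3 at an unadjusted p under 0.05) and 1 with edgeR, while without embryo 5, 3 were lower. Of 3 macrophage genes Csf1r was lower, at 2.64, 2.59, 6.4, 2.46 and 4.32 CPM in PA1 and 1.33, 0.87, 1.64, 1.74 and 1.02 CPM in PA2 (log2 difference -0.96, SE 0.17, adjusted p 0.00218).

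The arch difference at E10.0 was then compared with that of the other stages and of the embryos labelled Hoxa2-/-, in 1 fit of 34 libraries from 17 embryos and 17831 genes, in which no library belongs to 2 groups. Of the genes called higher at E10.0, 96.8% had the same sign at E9.5, 79.0% at E10.5 and 99.1% under the label Hoxa2-/-, and of those called lower 88.1%, 82.2% and 96.1%. Over all genes tested at E10.0, 73.5%, 61.5% and 75.3% had the same sign. In the shared fit the arch difference passed for 14% of genes at wildtype E10.0 (5 embryos) and 37.6% at E9.5 (4 embryos). It passed for 3.16% at E10.5 (3 embryos) and 12.5% under the label Hoxa2-/- (5 embryos). Such shares depend on the number of embryos as well as on the size of the differences. A difference between the arch differences passed for 195 genes (1.09%) against E9.5, of which 79 were larger and 116 smaller at E10.0. Against E10.5 it passed for 112 genes (0.628%), 90 larger and 22 smaller, and against the embryos labelled Hoxa2-/- for 7 (0.0393%), 6 larger and 1 smaller. Here larger means more positive in PA2 at wildtype E10.0. The wildtype E9.5 and E10.5 libraries stood apart from those of E10.0 in Ski, as given above, and the part of that division in these 2 comparisons was not tested.

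Several genes that were lower in PA2 at E10.0 differed less, or not in that direction, at E9.5. Lhx6 averaged 2.48 ± 1.53 CPM in PA1 and 1.56 ± 0.768 CPM in PA2 at E9.5 (SD, n = 4), against 23.6 ± 11.3 and 2.81 ± 0.615 at E10.0 (n = 5). Its arch difference was more negative at E10.0, a change of -2.18 (SE 0.22, adjusted p 3.75e-05). Tbx22 averaged 0.202 CPM in PA1 and 0.200 CPM in PA2 at E9.5, a change of -2.15 (SE 0.30, adjusted p 0.00104). Alx4 averaged 5.32 ± 2.82 CPM in PA1 and 9.72 ± 1.71 CPM in PA2 at E9.5, the opposite order to E10.0, a change of -2.33 (adjusted p 0.00684). AI606473 changed by -2.17 (adjusted p 0.00352), but by -0.66 with edgeR (adjusted p 0.843).

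On the side of PA2, Hmx1 averaged 0.458 ± 0.408 CPM in PA1 and 1.32 ± 1.82 CPM in PA2 at E9.5. Its arch difference was larger at E10.0 by 2.52 (SE 0.30, adjusted p 0.000131), a call lost with edgeR (adjusted p 0.0944). Rarres1 averaged 11.9 ± 4.88 CPM in PA2 at E9.5, against 39.8 ± 10.2 at E10.0, a change of 2.27 (adjusted p 0.0108) that did not pass without embryos 2 and 3 together (adjusted p 0.0637). Postn, the periostin matrix gene, stood at E9.5 at 81.9 ± 32.1 CPM in PA1 and 20.3 ± 1.57 CPM in PA2, and it was not called at E10.0. The change was 1.75 (SE 0.22, adjusted p 0.00036). The non-coding transcripts Dlx4os and Dlx6os1 changed by 2.12 and 1.44 in the same direction; each overlaps its partner gene, Dlx4 or Dlx6, on the opposite strand, so these reads cannot be assigned, and the Dlx6os1 call was lost without the pairing.

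At E10.5, Fgf4 was nearly absent from PA2, with an average of 0.0185 ± 0.032 CPM (SD, n = 3), and the arch difference at E10.0 was larger by 2.49 (SE 0.40, adjusted p 0.00342), a call lost with edgeR (adjusted p 1). Osr2, an odd-skipped gene of palate and jaw mesenchyme, averaged 18.9 ± 5.94 CPM in PA1 and 3.06 ± 1.09 CPM in PA2 at E10.5, against 1.55 ± 0.783 and 1.99 ± 0.848 at E10.0. Its arch difference did not pass at E10.0 (SE 0.14, adjusted p 0.282) and differed between the stages by 2.52 (SE 0.18, adjusted p 1.62e-07). Alx1 averaged 37.9 ± 6.47 CPM in PA1 and 3.71 ± 1.04 CPM in PA2 at E10.5, a change of 2.51 (adjusted p 0.0124) that was lost at a pseudocount of 0.25. Dlg2 and Rgs4 changed by 2.38 and 3.09, and the call of Rgs4 was lost without embryo 2. Csn3, lower in PA2 at E10.0, stood at E10.5 at 2.69 ± 1.07 CPM in PA1 and 2.59 ± 0.76 CPM in PA2, a change of -1.60 (SE 0.22, adjusted p 0.000897). Hmx1 had a larger difference still at E10.5, with 31.7 ± 2.31 CPM in PA2, a change of -1.42 (adjusted p 0.0463) that was lost in 9 of the alternatives.

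In PA2 of E10.0 embryos labelled Hoxa2-/-, Hoxa2 itself stood at 97.7 ± 13.3 CPM (n = 5), against 47.5 ± 4.49 in wildtype. The transcript was thus not lowered, which does not decide the genotype, and the group is named as labelled. What the allele removes is not given in the sources used here. Kcna5 stood at 3.87 ± 0.568 CPM in PA1 and 8.9 ± 1.35 CPM in PA2 of these embryos, against 3.64 ± 0.965 and 29.7 ± 8.54 in wildtype. The wildtype arch difference was larger by 1.68 (SE 0.23, adjusted p 0.00286). Vcam1, a cell adhesion gene higher in wildtype PA2 by 1.16, stood at 23.5 ± 7.45 and 22.9 ± 6.28 CPM in embryos with the label, a change of 1.18 (adjusted p 0.032). Meis2 stood at 106 ± 5.17 and 115 ± 5.89 CPM, a change of 0.49 (SE 0.07, adjusted p 0.00521). Sema3a, lower in wildtype PA2, stood at 156 ± 14.4 and 158 ± 12 CPM, a change of -0.59 (adjusted p 0.0142). Enpp2, which encodes the lysophospholipase autotaxin, averaged 81.2 ± 25.2 and 76.8 ± 24.9 CPM in wildtype PA1 and PA2 and 81.8 ± 13 and 34.4 ± 13 CPM with the label, a change of 1.21 (adjusted p 0.0197). Kcna5 and Meis2 kept their call in all alternatives, Vcam1 and Enpp2 lost it in 6 and Sema3a in 5. The other 2 genes of the 7, E330013P04Rik (1.39, adjusted p 0.00521) and 3110099E03Rik (2.36, adjusted p 2.31e-06), fall outside the naming rule and were named after their values were seen. 3110099E03Rik averaged 1.43 ± 0.702 CPM in wildtype PA1 and 18 ± 9.89 CPM in wildtype PA2. Of the other jaw genes named, Pitx1 and Lhx8 did not pass this test: Pitx1 averaged 42.2 ± 7.19 CPM in PA1 and 2.58 ± 0.835 CPM in PA2 with the label, and Lhx8 66.5 ± 6.51 and 8.3 ± 1.87 CPM. Their differences were -1.07 and -0.35 (adjusted p 0.17 and 0.999).

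**Figure D5:**
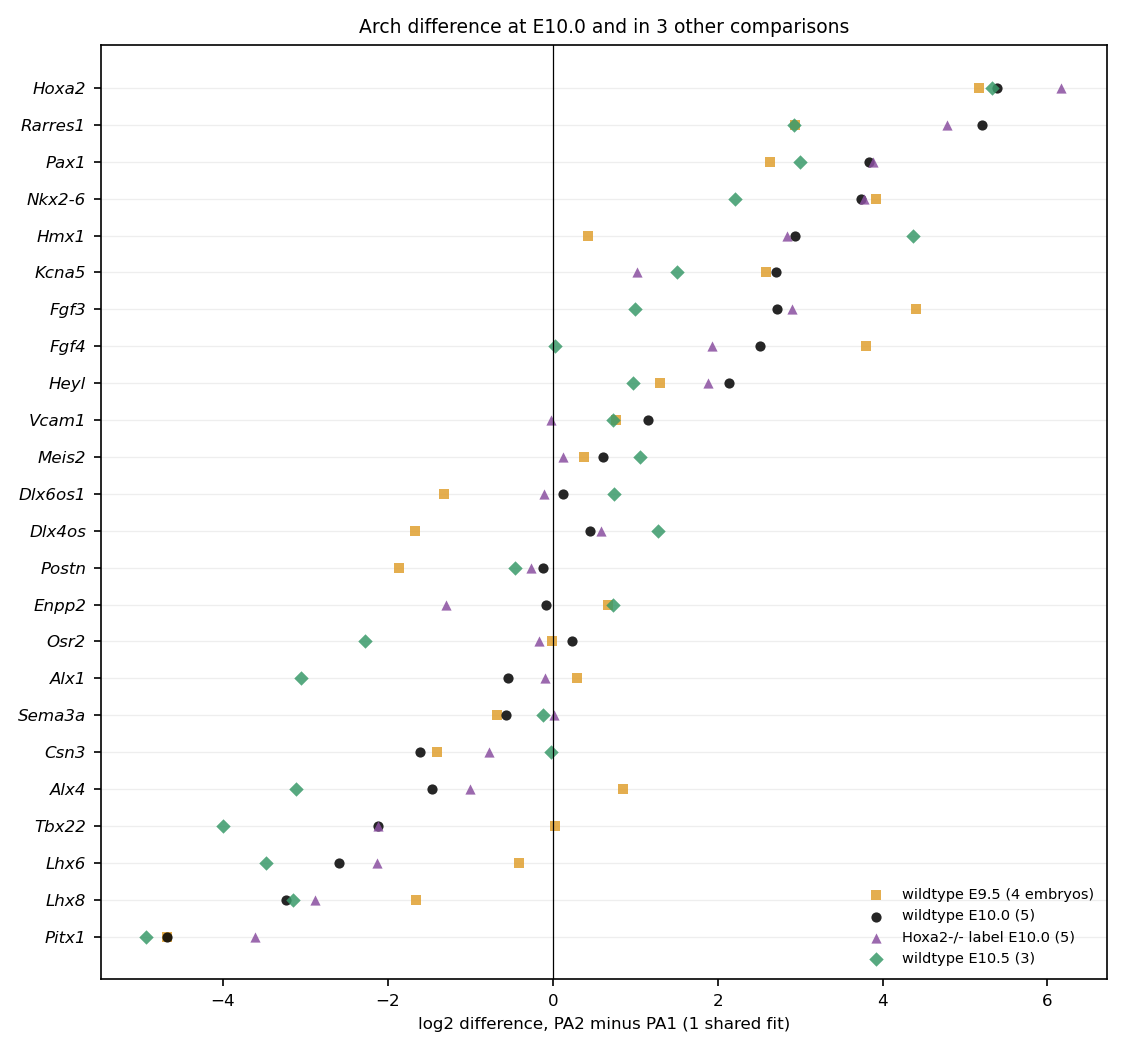
Log2 difference of PA2 minus PA1 in 4 groups of embryos from 1 shared fit (wildtype E9.5, E10.0 and E10.5, and E10.0 labelled Hoxa2-/-), for genes named in the text. Lhx6 stands at -2.59 at E10.0 and at -0.41 at E9.5, and Kcna5 stands at 2.70 in wildtype E10.0 against 1.02 with the label Hoxa2-/-.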

How the data were processed

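RNA from hand-dissected arches was measured in 68 libraries; 10 are the wildtype E10.0 arches and 34 entered the comparisons between groups. Per the submitters' processing notes, bcl2fastq 2.18, TopHat2 2.1.1, R 3.3.2 and build mm10 were named, without roles; the strandedness of the counting is not given in the sources used here. The deposited values are a signal per gene, scaled by the authors so that whole reads could be recovered: 100% of values were whole within 0.01 reads. They are read here as CPM with TMM scaling, as the design assumed, and levels are not compared between genes because gene length was not divided out. The table holds 21948 genes, of which 21921 IDs matched a symbol in GENCODE M21.

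Genes with at least 1 CPM in at least 5 of the 10 libraries were tested on log2(CPM + 1) with limma 3.58.1 (R 4.3.3), using a trended prior, the embryo as a fixed block, and Benjamini-Hochberg adjustment at 0.05 over all genes tested. The series text says that both arches came from a single embryo, and same-numbered libraries deviated together (correlations 0.25 to 0.56), so numbers pair them. Arch differences were compared between groups in 1 limma fit of 17 embryos, with genes of at least 1 CPM in at least 3 libraries. Libraries held 8912251 to 16972442 reads, and counting floors of 3 reads cover counting error only. Replicate libraries of an arch differed by more than counting error, with a chi-square per degree of freedom of 5.84 to 16.7. The limma errors take in the spread between embryos. Alternatives were no block, pseudocounts of 0.25 and 5, no filter or 5 CPM, median-of-ratios scaling, edgeR 4.0.16's quasi-likelihood test on recovered reads, all embryos in 1 fit, each embryo left out and, chosen after seeing the data, embryos 2 and 3 left out together. The paired limma and edgeR tests of the main comparison and the limma test of differences between groups were tried on simulated data. Simulated differences between groups held no embryo effect, unlike these data. The fits without the block and edgeR's test of differences were not simulated.

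The text names the 3 markers; for each direction, the 15 called genes of largest difference that have the same sign in 5 embryos, a mean of at least 5 CPM in either arch and a symbol not of the Gm or Rik kind; per list, up to 6 called members per direction and up to 3 not called, by mean level; and up to 5 genes per direction for each difference between groups. Some genes that this rule selects are not reported here. The members and lists were chosen with earlier results of these data known.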

Additional observations from a re-analysis of the deposited data

Results flagged for a closer look

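In all, 60 groups of 5 values were examined for 1 value far from the other 4, and chance places about 1 in 20 groups in this class, or 3 of 60; 7 were found. In 3 named genes the arch difference of 1 embryo lay apart. Gpr50 differed by -1.72 in embryo 5 against -2.48 to -2.30 in the others. Slitrk6 differed by -0.92 in embryo 2 against -2.12 to -1.96, and Csn3 by -2.07 in embryo 5 against -1.58 to -1.41. Each remained lower in PA2 in all 5 embryos.

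In 4 sums of cell type markers 1 library lay apart. Yolk sac endoderm markers summed to 147 CPM in PA2 of embryo 3, of which Afp made 73.1 and Fgb 21.1 CPM. Macrophage markers summed to 27.5 CPM in PA1 of embryo 3. Cranial ganglion neuron markers summed to 78.4 CPM in PA2 of embryo 2, where Neurog2 and Neurod4 each stood at 7.62 CPM. Hindbrain markers summed to 8.41 CPM in PA2 of embryo 3, below the other PA2 libraries. The part of these cells in the gene results was not tested.

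The arch difference at wildtype E10.0 differed by the limma interaction from that of another group for 24 named entries. Against wildtype E9.5 the differences of differences were 2.52 for Hmx1, 2.27 for Rarres1, 2.12 for Dlx4os, 1.75 for Postn, 1.44 for Dlx6os1, -2.33 for Alx4, -2.18 for Lhx6, -2.17 for AI606473 and -2.15 for Tbx22. Against wildtype E10.5 they were 3.09 for Rgs4, 2.52 for Osr2, 2.51 for Alx1, 2.49 for Fgf4, 2.38 for Dlg2, -1.60 for Csn3, -1.56 for Snx31, -1.42 for Hmx1, -1.21 for Sytl4 and -1.03 for Rpl19-ps3. Rpl19-ps3 is a pseudogene whose reads can be shared with Rpl19, so its value is uncertain. Against embryos labelled Hoxa2-/- at E10.0 they were 1.68 for Kcna5, 1.21 for Enpp2, 1.18 for Vcam1, 0.49 for Meis2 and -0.59 for Sema3a. Of the 24, 11 kept their call in all alternatives: Alx4, Csn3, Dlg2, Dlx4os, Kcna5, Lhx6, Meis2, Osr2, Postn, Snx31 and Tbx22.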

How the results depend on the processing

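No named call changed direction under an alternative, but the balance of directions reversed in some counts. With a filter of 5 CPM, 906 genes were higher and 1136 lower in PA2 (44.4% higher, against 51.4%). Against E9.5, edgeR called 94 genes larger and 86 smaller at E10.0, in place of 79 and 116. Without the embryo block, 898 genes passed in place of 2534 (75.7% of them higher), all 898 among the 2534. The differences between groups then numbered 31, 72 and 3 against E9.5, E10.5 and the label Hoxa2-/-, in place of 195, 112 and 7. Of 173 named called genes, 53 lost their call without the block and 0 changed direction. Leaving out each embryo in turn gave 1496 to 2427 genes, 51 to 221 against E9.5, 65 to 137 against E10.5 and 4 to 7 against the label. The count of 2534 fell to 1644 without embryo 4 and to 1496 without embryo 5 (61.6% higher), and the count against E9.5 to 51, 78 and 124 without embryos 1, 3 and 5; that against E10.5 fell to 70 and 65 without embryos 4 and 5. Without embryos 2 and 3 together the counts were 1519 (63.9% higher), 67, 88 and 3. The count against E10.5 was 75 at a pseudocount of 0.25. Counts under the other settings stayed within 1.5 times: 2298 by edgeR (63.6% higher), 180 against E9.5 by edgeR (52.2% larger at E10.0, against 40.5%) and 1746 with all embryos in 1 fit (65.9% higher). The cause of these movements was not tested, beyond the smaller number of samples where embryos were left out. At this depth, genes under 1 CPM in most libraries were not tested, and 3 reads stand for 0.18 to 0.328 CPM.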

Other observations

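Some genes outside the lists also differed by over 1 between the arches; they were chosen after their values were seen. Cyp1b1, a cytochrome P450 gene that can oxidise retinoids and steroids, averaged 6.84 ± 1.88 CPM in PA1 and 41.2 ± 12.6 CPM in PA2 (SD, n = 5), with a log2 difference of 2.42 (SE 0.16, adjusted p 8.34e-07). Cntfr, the receptor gene of ciliary neurotrophic factor, averaged 1.27 ± 0.715 and 9.53 ± 4.61 CPM (log2 difference 2.14, SE 0.19, adjusted p 7.89e-06). Lrrn1, a leucine-rich repeat membrane protein gene, averaged 25.2 ± 5.82 and 82.8 ± 14.4 CPM (log2 difference 1.69, SE 0.11, adjusted p 7.05e-07).

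The neurotrophin receptor genes Ntrk2 and Ngfr were both higher in PA2. Ntrk2 averaged 4.8 ± 0.428 CPM in PA1 and 16.7 ± 1.25 CPM in PA2 (log2 difference 1.61, SE 0.10, adjusted p 2.73e-07) and Ngfr 1.08 ± 0.273 and 6.69 ± 3.74 CPM (log2 difference 1.75, SE 0.24, adjusted p 0.000293). Slc34a2, a phosphate transporter gene, had 0 reads in all 5 PA1 libraries and stood at 3.48, 4.03, 3.93, 5.0 and 6.89 CPM in PA2. On the other side, Dok5, a signalling adaptor gene, averaged 32.3 ± 4.12 CPM in PA1 and 10.1 ± 2.68 CPM in PA2 (log2 difference -1.61, SE 0.14, adjusted p 6.25e-06), and Chrna6, a nicotinic receptor subunit gene, 17.7 ± 4.67 and 5.24 ± 1.77 CPM (log2 difference -1.59, SE 0.20, adjusted p 0.000144).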
